A study of Mus musculus with 12 samples.

Results

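The core pluripotency factors described here are 8 genes, Pou5f1, Sox2, Sall4, Lin28a, Utf1, Nr5a2, Gbx2 and Rif1, taken by symbol from the RNA-seq and the ribosome profiling count tables of R1 mouse embryonic stem cells. All 8 were present in both tables, among 23420 gene entries, and all 8 passed the filter on low counts in each comparison. The cells, a line derived from mouse blastocysts, were grown on gelatin with the cytokine LIF and transfected for 48 h. The tested group received siRNAs against the ribosome assembly gene Krr1, needed to build the small subunit (lysates siKrr1 A, C and D), and the controls are the lysates siGFP, siNC and Lipo. The labels speak of 3 different Krr1 siRNAs and 3 different control siRNAs, although the name Lipo states none. Each lysate was divided between RNA-seq of rRNA-depleted RNA and ribosome profiling, a readout of the mRNA pieces shielded by ribosomes (footprints), so there are 12 libraries, 3 per group and assay. The labels do not say whether the lysates were separate cultures, so p-values measure only the spread between these samples.

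Pou5f1 (also called Oct4) and Sox2 are transcription factors that bind DNA side by side and hold embryonic stem cells in the pluripotent state, in which a cell can still form every tissue of the embryo. Sall4 is a zinc-finger factor that works with them, Nr5a2 is an orphan nuclear receptor known to act on the Pou5f1 gene in mouse cells, and Gbx2 is a homeobox factor of the LIF response. Utf1 is a chromatin-bound protein of undifferentiated cells and a textbook target of Pou5f1 and Sox2. Lin28a is an RNA-binding protein that blocks maturation of the let-7 microRNAs, and Rif1 is a large chromatin protein that sets the timing of DNA replication.

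The start regions of Pou5f1, Utf1 and of their partner Sox2 are printed because footprints of Pou5f1 and Utf1 were lower in every siKrr1 lysate. The groups failed to overlap in this way, in either direction, for 27.9% of all genes tested in footprints, and edgeR called neither gene. RNA of Pou5f1 and Utf1 overlapped between the groups and was not called (log2 fold change -0.13 for each). A part of the start regions in the footprint values was not tested. Sox2 footprints overlapped between the groups and were not called (log2 fold change 0.10). Each window runs from 250 bases before the RefSeq gene start to 50 bases from it (build GRCm38.p6, the assembly also named mm10), 5′ to 3′ on the strand of the gene. Capitals mark matches on either strand to the GC box GGGCGG, to TCAAGG, the core of sites for Nr5a receptors, and to ATGCAAA.
Pou5f1, chr17:35505782-35506081, plus strand: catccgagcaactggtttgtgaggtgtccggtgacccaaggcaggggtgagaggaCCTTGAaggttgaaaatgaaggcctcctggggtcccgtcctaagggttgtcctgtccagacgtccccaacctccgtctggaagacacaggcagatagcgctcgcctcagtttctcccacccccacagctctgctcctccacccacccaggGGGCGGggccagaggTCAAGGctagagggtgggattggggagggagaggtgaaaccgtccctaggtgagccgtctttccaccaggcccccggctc
Utf1, chr7:139943606-139943905, plus strand: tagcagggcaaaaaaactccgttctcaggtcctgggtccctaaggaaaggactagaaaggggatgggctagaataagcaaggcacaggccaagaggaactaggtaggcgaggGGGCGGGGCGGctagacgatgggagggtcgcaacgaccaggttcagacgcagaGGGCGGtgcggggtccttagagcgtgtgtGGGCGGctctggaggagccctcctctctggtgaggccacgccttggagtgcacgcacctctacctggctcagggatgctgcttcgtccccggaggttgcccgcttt
Sox2, chr3:34649745-34650044, plus strand: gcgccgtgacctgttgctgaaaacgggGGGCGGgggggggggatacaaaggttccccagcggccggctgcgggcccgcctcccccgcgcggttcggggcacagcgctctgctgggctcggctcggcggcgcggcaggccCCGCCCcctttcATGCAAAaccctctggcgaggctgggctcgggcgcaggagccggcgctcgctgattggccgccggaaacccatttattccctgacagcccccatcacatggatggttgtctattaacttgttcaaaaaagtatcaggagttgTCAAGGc
RefSeq gave windows for 6 of the 8 members, 8 windows in all. The full octamer ATGCAAAT, the site of POU factors, was in none of these, against 1.74% of all 32851 windows, and ATGCAAA, which is contained in it, was in the Sox2 window alone (4.63% of all windows). A Sox-type site, CATTGTT, was found in the second, downstream window of Pou5f1 (3.78% of all windows). The GC box was in 5 member windows and in 35.7% of all. The Utf1 window held it 4 times, with a pair of matches that overlap, and the upstream Pou5f1 window held it 45 bases before the start. TCAAGG was in 3 member windows (14.4% of all), among them that of Pou5f1 at 30 and, on the other strand, at 195 bases before the start, while the longer Nr5a2 site CAAGGTCA was in none (1.56% of all). The distant enhancers of these genes lie outside the windows.

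The libraries held 31318772 to 37673764 counts on genes in the siKrr1 lysates and 35795829 to 39670139 in the controls in RNA-seq. In footprints they held 21615934 to 28911254 counts in the siKrr1 lysates and 22317119 to 28026444 in the controls. Levels below are CPM (read counts scaled to a common library size) after TMM scaling, a correction for library composition, so each is a share of its library and not an amount per cell. In such bulk samples fewer cells of a type and less RNA per cell cannot be told apart. Krr1 RNA was at 33.7, 58.0 and 64.6 CPM in siKrr1 A, C and D, against 155, 151 and 160.3 CPM in siGFP, siNC and Lipo, and its footprints at 31.1, 61.6 and 51.7 CPM against 165, 158 and 171 CPM, so the target was lower in every siKrr1 lysate (log2 fold change -1.58 ± 0.18 in RNA and -1.77 ± 0.18 in footprints, edgeR adjusted p = 0.00228 and 0.000819).

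The 10 markers of embryonic stem cells, Pou5f1, Sox2 and Utf1 among them, were all detected. They summed to 6629 to 7942 CPM of RNA in siKrr1 lysates and 8348 to 8420 CPM in controls. Of these 4 were called lower, Nanog, Klf4, Esrrb and Zfp42 (2.11% of all genes were called lower in RNA), but 1 without siGFP, siNC or Lipo and 2 without siKrr1 A. In footprints 4 were also called lower, and 2 without Lipo. Over all genes tested 2.69% were called higher in RNA, and 3.39% higher and 2.68% lower in footprints. Of 12 markers of fibroblasts or feeder cells, Col3a1, Postn and Lum were at 0 in every RNA library. Their sum was 14.7 to 48.4 CPM of RNA in siKrr1 lysates and 10.01 to 11.7 CPM in controls. The smooth muscle gene Tagln, at 18.1 ± 20.6 CPM in siKrr1 lysates and 2.22 ± 0.536 CPM in controls, was the 1 of them called higher, in both assays. Of 14 primitive endoderm markers the sum was 616 to 726 CPM of RNA in siKrr1 lysates and 515 to 519 CPM in controls. The 3 called higher in RNA, Sparc, Lamb1 and Col4a1, are genes of the extracellular matrix. The lineage factors Gata4, Gata6, Sox17 and Sox7 and the receptor Pdgfra had mean RNA levels under 2 CPM in both groups and log2 fold changes in RNA of -0.65 to -0.09, none of them called. Dab2 lay the other way in RNA at 0.58 (1.16 CPM in siKrr1 lysates, 0.784 CPM in controls). Lama1 and Col4a2 were at 0.30 and 0.26, and edgeR called none of these. The median over the 11 primitive endoderm markers tested in RNA was 0.26. Of 12 trophectoderm markers the RNA sum was 65.8 to 74.9 CPM in siKrr1 lysates and 79.1 to 82.5 CPM in controls. In RNA 2 were called higher, Krt18 and Krt7 (0.658 CPM in siKrr1 lysates, 0.106 CPM in controls), and 1 lower, Gata2. Their footprint sums overlapped, at 86.1 to 92.1 CPM in siKrr1 lysates and 90.1 to 97.9 CPM in controls. There 1 was called higher, Gata3 (1.91 CPM in siKrr1 lysates, 0.512 CPM in controls), and 3 lower, Gata2, Eomes and Tead4. With any control lysate left out 0 markers of these last 3 lists were called by edgeR in either assay. Calls over all genes also dropped without siGFP, siNC or Lipo, from 674 to 123, 138 and 114 in RNA. In footprints they dropped from 806 to 246, 203 and 131. The part of these markers in the values of the members was not tested.

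The question for the members was whether loss of Krr1 changed their mRNA, their footprints, or the footprints relative to the mRNA. None of the 8 passed the test in any of these comparisons (edgeR quasi-likelihood test, with a Benjamini-Hochberg threshold of 0.05 over all genes). In RNA edgeR called 0 of 8, against 4.80% of 14038 genes tested, and DESeq2 called 0, against 9.09% of the genes it gave an adjusted p. An unadjusted edgeR p under 0.05 was found for 1 member in RNA, against 20.9% of all genes. In footprints edgeR called 0 of 8, against 6.07% of 13287 genes, and DESeq2 called 2, Pou5f1 and Utf1, against 9.44% of genes. An unadjusted edgeR p under 0.05 was found for 4 members in footprints, against 22.5% of all genes. The median log2 fold change, siKrr1 over control, over the members was 0.03 in RNA and 0.10 in footprints, against 0.00 and 0.01 over all genes tested. Among genes of at least 20 CPM in both assays, the smallest called change was 0.27 on the log2 scale in RNA and 0.19 in footprints. In RNA all 8 members lay under that size, and in footprints 6 of 8 did. In that abundant group, which holds all 8 members, 5.74% of genes were called in RNA and 8.19% in footprints.

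**Figure D1:**
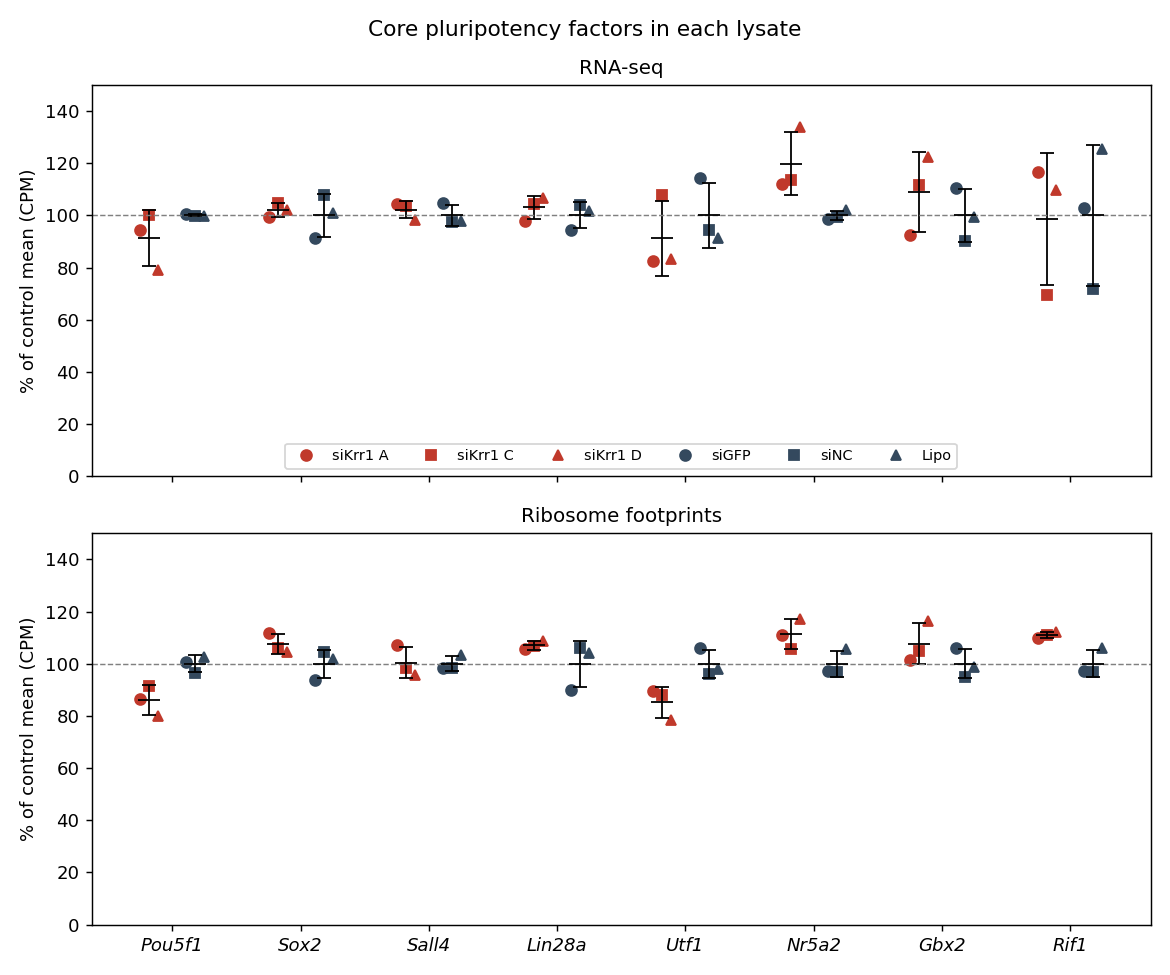
Level of each core factor in each lysate as a percentage of the control mean, RNA-seq above and ribosome footprints below, with siKrr1 lysates in red left of the controls in dark blue; black bars are the mean ± SD (n = 3). Footprints of Pou5f1 and Utf1 lie below the controls in all 3 siKrr1 lysates (27.9% of all genes tested did not overlap, in either direction). Rif1 RNA is low in siKrr1 C and siNC alone.

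Pou5f1 RNA stood at 2761, 2927 and 2319 CPM in siKrr1 A, C and D, against 2938, 2917 and 2926 CPM in siGFP, siNC and Lipo. The controls lay within a narrow band, siKrr1 C lay inside it, and siKrr1 D was the lowest. Its log2 fold change was -0.13 ± 0.09 (SE), with a 95% interval from -0.33 to 0.07 (edgeR adjusted p = 0.453). Pou5f1 footprints stood at 1157, 1220.3 and 1070.2 CPM in siKrr1 A, C and D, against 1346, 1289 and 1372 CPM in the controls. Here the groups did not overlap, as for 27.9% of all genes tested in footprints. The change was -0.22 ± 0.06, with an interval from 78.7% to 94.2% of control, and it missed the threshold (edgeR adjusted p = 0.0558). DESeq2 placed it past the threshold (adjusted p = 0.0234), as did edgeR without siKrr1 C (adjusted p = 0.02), and the edgeR adjusted p ran up to 0.227 without Lipo.

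Sox2 RNA was at 583, 614 and 599 CPM in siKrr1 A, C and D and at 537, 632 and 592 CPM in siGFP, siNC and Lipo, so the siKrr1 values lay inside the control range. The log2 fold change was 0.03 ± 0.08 (edgeR adjusted p = 0.876). Footprints of Sox2 were at 567, 538 and 529 CPM in siKrr1 lysates and at 476, 529 and 515 CPM in controls. The siKrr1 mean was 107% of the control mean, and the log2 fold change was 0.10 ± 0.06 with an interval from 98.5% to 117% of control (edgeR adjusted p = 0.319). The ranges met at siKrr1 D and siNC.

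Sall4 was nearly level between the groups. Its RNA ranged from 347 to 368 CPM in siKrr1 lysates and from 344 to 369 CPM in controls, and its footprints from 523 to 586 CPM in siKrr1 lysates and from 537 to 565 CPM in controls. The log2 fold changes were 0.03 ± 0.07 in RNA and 0.01 ± 0.06 in footprints (edgeR adjusted p = 0.839 and 0.966), and the footprint interval ran from 92.0% to 109.6% of control.

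Nr5a2 was the member furthest from 0 in RNA. Its RNA stood at 53.8, 54.5 and 64.3 CPM in siKrr1 A, C and D, against 47.3, 47.7 and 49.0 CPM in siGFP, siNC and Lipo. All 3 siKrr1 lysates lay above the controls (27.0% of genes tested in RNA did not overlap, in either direction), and siKrr1 D was the highest. The log2 fold change of 0.26 ± 0.09 did not pass the correction (unadjusted p = 0.0119, edgeR adjusted p = 0.115), and its interval ran from 105% to 137% of control. Nr5a2 footprints were at 90.2, 85.9 and 95.3 CPM in siKrr1 lysates and at 79.1, 78.8 and 86.0 CPM in controls. The ranges met at siKrr1 C and Lipo, and the log2 fold change was 0.15 ± 0.07 (edgeR adjusted p = 0.201).

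Gbx2 varied among the lysates of each group. Its RNA was at 125, 151 and 165 CPM in siKrr1 A, C and D and at 149, 122 and 134 CPM in siGFP, siNC and Lipo. In footprints it was at 210.3, 218 and 242 CPM in siKrr1 A, C and D and at 220.1, 197 and 205 CPM in the controls. In both assays siKrr1 D was the highest lysate and siGFP the highest control. The log2 fold changes were 0.12 ± 0.11 in RNA and 0.11 ± 0.07 in footprints (edgeR adjusted p = 0.559 and 0.386).

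Utf1 followed Pou5f1 in direction. Utf1 RNA was at 136, 177 and 137 CPM in siKrr1 A, C and D, against 188, 155 and 150.1 CPM in siGFP, siNC and Lipo. siKrr1 C lay inside the control range and the other siKrr1 lysates below it, and the log2 fold change was -0.13 ± 0.12 (edgeR adjusted p = 0.562). Utf1 footprints stood at 979, 961 and 859 CPM in siKrr1 lysates, against 1161, 1050.0 and 1072 CPM in controls. The groups did not overlap, as for 27.9% of all genes tested in footprints. With a log2 fold change of -0.23 ± 0.06 and an interval from 77.4% to 94.0% of control, Utf1 missed the edgeR threshold (adjusted p = 0.0603) and passed that of DESeq2 (adjusted p = 0.0231). It also passed in edgeR without siKrr1 A (adjusted p = 0.0371), and the edgeR adjusted p ran up to 0.212 without siGFP.

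Lin28a, the RNA-binding member, had 509.8 to 555 CPM of RNA in siKrr1 lysates and 491 to 541 CPM in controls, a log2 fold change of 0.04 ± 0.07 (edgeR adjusted p = 0.782). Its footprints were at 147, 149 and 152 CPM in siKrr1 A, C and D and at 125, 148 and 145 CPM in siGFP, siNC and Lipo. The siKrr1 values lay close together and siGFP was the lowest lysate, and the groups overlapped through siNC. The footprint change was 0.10 ± 0.07 (edgeR adjusted p = 0.439).

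Rif1 RNA did not follow the groups. It stood at 240.0, 143 and 226 CPM in siKrr1 A, C and D and at 212, 148 and 258 CPM in siGFP, siNC and Lipo, so siKrr1 C and siNC were low and the others high. The spread was 52.3 CPM (SD, n = 3) in siKrr1 lysates and 55.6 CPM in controls around nearly equal means of 203 and 206 CPM. Its log2 fold change of -0.02 ± 0.20 had the widest RNA interval of the members, from 72.3% to 134% of control (edgeR adjusted p = 0.965). Footprints of Rif1 showed none of this pattern, with 633, 639 and 647 CPM in siKrr1 A, C and D against 561, 557 and 610.4 CPM in siGFP, siNC and Lipo. The groups did not overlap in footprints, as for 27.9% of all genes tested. The difference of 0.15 ± 0.05 on the log2 scale did not pass the correction (edgeR unadjusted p = 0.0165, edgeR adjusted p = 0.121).

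**Figure D2:**
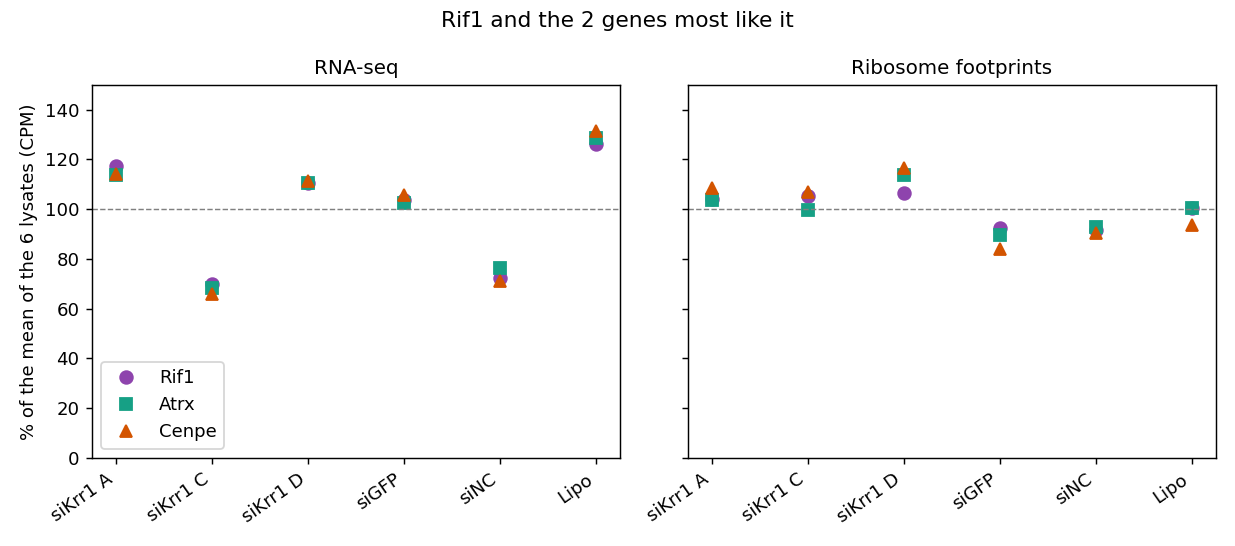
RNA (left) and footprints (right) of Rif1, Atrx and Cenpe in each lysate, as a percentage of the mean of the 6 lysates of that assay. Atrx and Cenpe were picked as the genes most like Rif1 over these same libraries. In RNA all 3 genes are at 66.0% to 76.5% in siKrr1 C and siNC and above 100% in the other lysates, and in footprints they are at 99.6% or more in siKrr1 C and at 90.5% to 92.7% in siNC.

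Counted together, 3 of the 8 members had footprints with no overlap between siKrr1 and control lysates, Pou5f1 and Utf1 below and Rif1 above, against 27.9% of all genes tested and 32.7% of genes of at least 20 CPM in both assays. Without TMM scaling the count was 6, against 28.4% of all genes, because Sox2, Lin28a and Nr5a2 then also lay above the controls, so the count of members depends on that scaling. In RNA 1 of 8, Nr5a2, had no overlap, with and without that scaling, against 27.0% of all genes tested with it, 27.1% without it and 29.2% of the abundant ones.

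**Figure D3:**
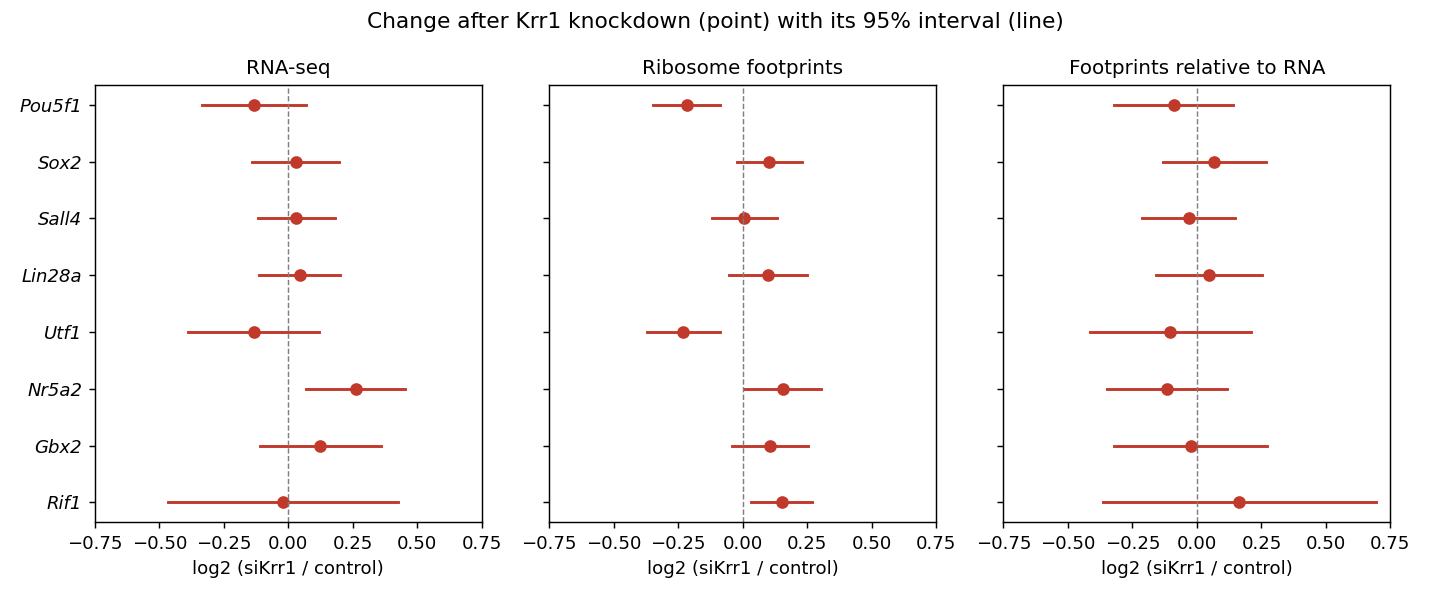
Log2 fold change, siKrr1 over control, of each core factor in RNA, in footprints and in footprints relative to RNA, with its 95% interval from the edgeR fit. In footprints the intervals of Pou5f1 and Utf1 lie below 0 and those of Nr5a2 and Rif1 above it before correction over all genes; in the right panel every interval spans 0.

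Translational efficiency, the footprint level divided by the RNA level of the same gene, differed widely between the members. In log2 units Utf1 was at 2.65 ± 0.20 in siKrr1 lysates and 2.74 ± 0.11 in controls (SD, n = 3 each), 6.26 and 6.68 footprint CPM per RNA CPM. That placed it at rank 90 of 13100 genes in the controls. Rif1 was at 1.69 ± 0.41 in siKrr1 lysates and 1.52 ± 0.35 in controls, the widest spread of the members. Its control percentile was 95.5 among all genes. In the same order of groups Nr5a2 (0.66 ± 0.09 and 0.76 ± 0.05), Sall4 (0.61 ± 0.06 and 0.63 ± 0.09) and Gbx2 (0.61 ± 0.12 and 0.62 ± 0.07) followed. Sall4 and Gbx2 overlapped in both groups, and Nr5a2 lay just above them in controls and overlapped with them in siKrr1 lysates. Sox2 was at -0.14 ± 0.08 in siKrr1 lysates and -0.21 ± 0.04 in controls, close to the median gene at -0.19 in siKrr1 lysates and -0.20 in controls. Pou5f1 was at -1.21 ± 0.08 in siKrr1 lysates and -1.13 ± 0.04 in controls, and Lin28a was the lowest at -1.84 ± 0.05 in siKrr1 lysates and -1.90 ± 0.06 in controls, a control percentile of 5.04 among all genes. In the controls the lysates of Utf1, of Sox2, of Pou5f1 and of Lin28a did not overlap with those of the neighbouring members, and the order was the same in siKrr1 lysates save that Gbx2 and Sall4 changed places by less than their spread. Footprints fall on the coding region and RNA reads on the whole transcript, so this ratio also carries the share of a transcript that is coding, which was not measured here.

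**Figure D4:**
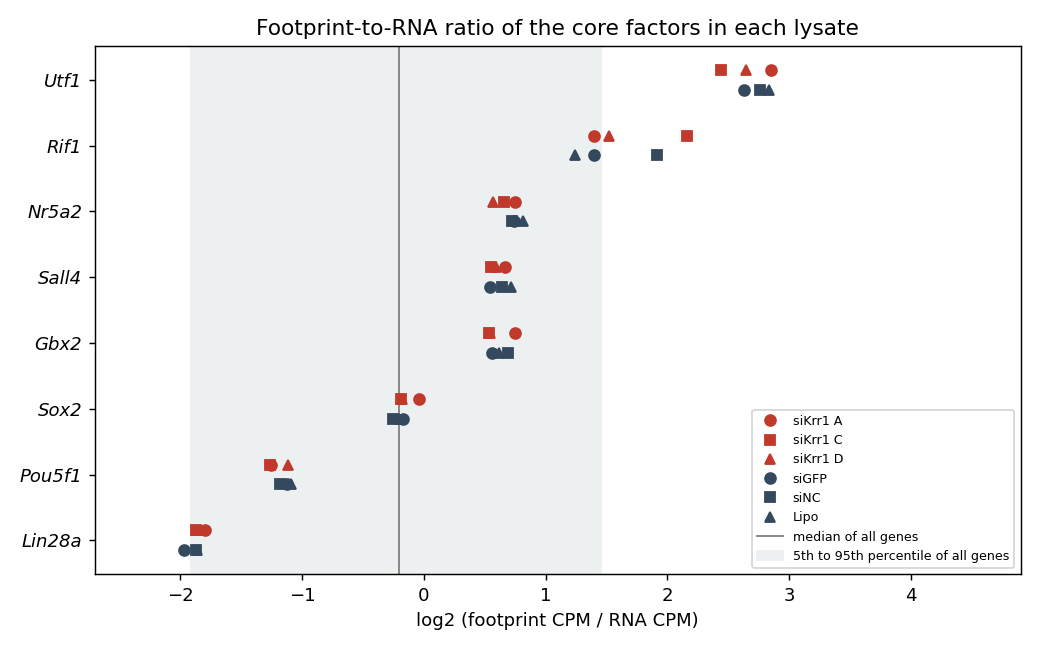
Log2 of footprint CPM over RNA CPM of each core factor in each lysate, siKrr1 in red above the controls in dark blue; the grey band runs from the 5th to the 95th percentile of all genes in the controls and the grey line is their median. Utf1 lies right of the band, Rif1 across its right edge (1.24 to 2.16) and Lin28a at its left edge. The lysates of a gene lie close together except for Rif1.

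No member passed the test for a change in translational efficiency. In the model of all 12 libraries 0 of 8 were called and 0 had an unadjusted p under 0.05, and DESeq2 called 0 as well; 0% of 14236 genes were called by edgeR, with 343 at an unadjusted p under 0.05. With the lysate as a replicate block, which pairs both assays of a lysate, 9 genes were called, none of them a member. The differences and intervals that follow come from the fit with no block, which leaves out that pairing. The largest differences of the members were 0.16 ± 0.25 for Rif1, -0.11 ± 0.11 for Nr5a2 and -0.10 ± 0.15 for Utf1 on the log2 scale. The interval of Pou5f1 ran from 80.1% to 110.2% of control and that of Sall4 from 86.2% to 111%, whereas that of Rif1, from 77.7% to 162%, was the widest. In 0 of the 8 were siKrr1 and control lysates without overlap, against 12.3% of all genes.

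Some other genes of the pluripotency network were called by edgeR, while no core factor was. Of 25 partners, all tested, 8 fell and none rose in RNA, and 9 fell and 1 rose in footprints, with median log2 fold changes of -0.14 in both. The shares over all genes were 2.11% lower and 2.69% higher in RNA and 2.68% lower and 3.39% higher in footprints. The partners, like the members, were chosen with earlier results of these data known, so these counts describe the list and do not test it. Klf4, a zinc-finger factor of the naive state, fell in footprints by 0.64 ± 0.06 to 138 ± 7.14 CPM in siKrr1 lysates, against 216 ± 13.1 CPM in controls (edgeR adjusted p = 0.000818). Footprints of Tbx3, a T-box factor, fell by 0.85 ± 0.09, those of Tcl1, a coactivator of the kinase Akt, by 0.56 ± 0.08, and those of Nanog, a homeobox factor bound to the same sites as Pou5f1, by 0.60 ± 0.08 (edgeR adjusted p = 0.00134, 0.00323 and 0.00335). These 4 footprint calls held with each lysate left out in turn. Dppa4 footprints rose by 0.36 ± 0.09 (edgeR adjusted p = 0.0438, up to 0.171 without siNC). With siGFP, siNC or Lipo left out 7, 7 and 4 partners fell in footprints, and 3, 2 and 2 in RNA. Without siKrr1 A, C or D 11, 10 and 7 fell in footprints, and 4, 10 and 5 in RNA. Whether core factors and partners differ as lists was not tested.

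**Figure D5:**
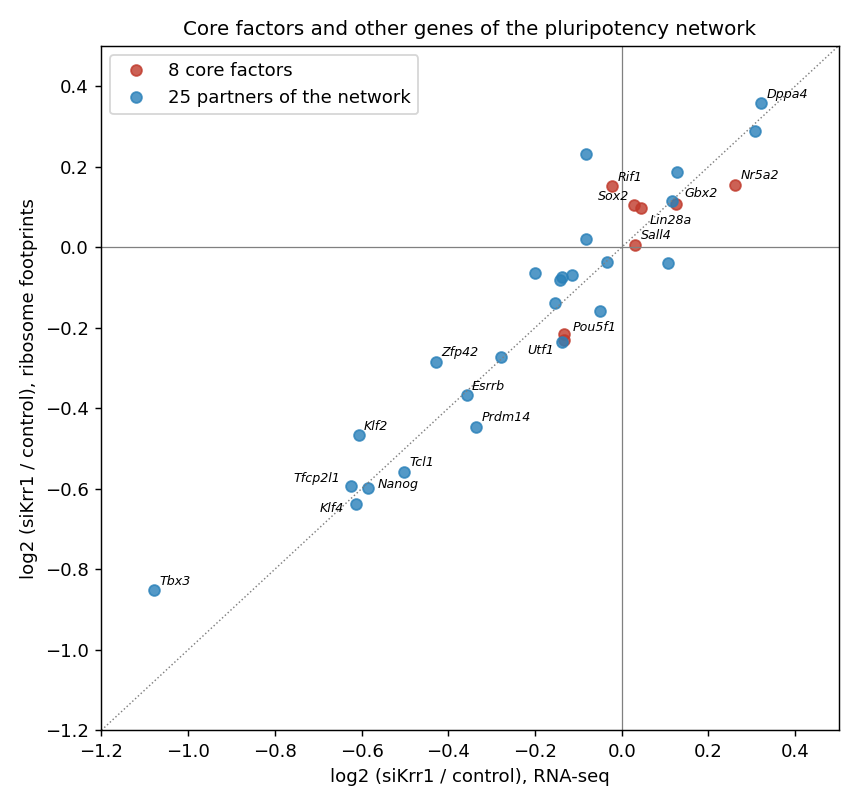
Log2 fold change, siKrr1 over control, in RNA (horizontal) and in footprints (vertical) of the 8 core factors in red and of 25 other genes of the pluripotency network in blue; the dotted line marks equal change. The core factors lie between -0.23 and 0.26 on both axes, whereas Tbx3, Klf4, Tfcp2l1 and Nanog lie between -0.58 and -1.08 in RNA.

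Among 14 genes listed as targets of Pou5f1 and Sox2, which share Nanog, Zfp42, Zscan10 and Dppa4 with the partners, 3 fell and none rose in RNA, and 3 fell and 3 rose in footprints. Of all genes, 2.11% fell and 2.69% rose in RNA, and 2.68% fell and 3.39% rose in footprints. Fgf4, the growth factor whose enhancer is the classic joint site of Pou5f1 and Sox2, fell in footprints by 0.45 ± 0.07 to 54.8 ± 3.78 CPM in siKrr1 lysates, against 74.6 ± 4.01 CPM in controls (edgeR adjusted p = 0.00805, 0.0602 without Lipo). Spp1, the secreted phosphoprotein osteopontin, fell in footprints by 0.68 ± 0.12 (edgeR adjusted p = 0.00908, 0.0629 without Lipo). The DNA repair gene Trp53bp1 rose in footprints by 0.37 ± 0.08 (edgeR adjusted p = 0.0282), and Fbxo15, an F-box gene, by 0.50 ± 0.13 (edgeR adjusted p = 0.0434). Neither of these rises was called with any control lysate left out, and with Lipo left out 1 target fell in footprints. Without siGFP, siNC and Lipo 246, 203 and 131 of all genes were called in footprints, against 806 with every lysate. In RNA 1 target fell without siNC and 1 without Lipo.

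Relatives of the members by gene family were described next. Of 24, 21 were tested in RNA, where 1 rose (2.69% of all genes did), and 19 in footprints, where 1 rose (3.39%) and 3 fell (2.68%). Nr6a1, an orphan receptor that represses Pou5f1 on differentiation, rose in RNA by 0.38 ± 0.07 to 73.5 ± 3.15 CPM in siKrr1 lysates, against 56.4 ± 0.855 CPM in controls (edgeR adjusted p = 0.0172, 0.0977 without Lipo). Sall1, a paralog of Sall4, fell in footprints by 0.25 ± 0.06 and the orphan receptor Nr0b1 by 0.27 ± 0.06, while Sox3, a close relative of Sox2, fell by 0.49 ± 0.12 (edgeR adjusted p = 0.0298, 0.0332 and 0.0368), and Sox4 rose by 0.61 ± 0.13 (edgeR adjusted p = 0.0232). Lin28b, the paralog of Lin28a, was at 0.28 ± 0.12 in RNA and at -0.09 ± 0.18 in footprints (edgeR adjusted p = 0.198 and 0.836). With any control lysate left out 0 of the family relatives were called by edgeR in either assay. Calls over all genes then dropped too, from 674 to between 114 and 138 in RNA and from 806 to between 131 and 246 in footprints.

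Of 18 genes of the Lin28a and let-7 axis, 0 were called in RNA by edgeR (3 lower without siKrr1 C, and 0 with any other lysate left out), and 3 fell in footprints. Of all genes, 4.80% were called in RNA and 2.68% fell in footprints. Igf2bp2, an RNA-binding protein and let-7 target, fell in footprints by 0.69 ± 0.15, Myc by 0.26 ± 0.06 and the D-type cyclin Ccnd2 by 1.03 ± 0.26 (edgeR adjusted p = 0.021, 0.0282 and 0.0423). DESeq2 did not call Ccnd2 (adjusted p = 0.105). Igf2bp1, the most abundant gene of this list in RNA, stood at 0.08 ± 0.07 in RNA, and Ccnd1, the next most abundant, at -0.03 ± 0.08. None of the 3 falls was called with a control lysate left out, and 1 gene was called without siKrr1 D. Leaving out a control lysate took footprint calls over all genes from 806 to between 131 and 246.

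Each member had its own closest companions in profile. Over the 12 libraries, with log2 CPM centred within each assay and among 6117 genes of at least 20 CPM in both, Pou5f1 was most like Psmd13, a proteasome subunit (Pearson r = 0.98), and Tatdn2 (0.96). Utf1 was most like Stk16 (0.97) and 4930503E24Rik (0.93), Nr5a2 like Mllt4 (0.96) and Ptk2 (0.95), Lin28a like Arfip1 (0.95) and Spcs2 (0.93), and Gbx2 like Ermp1 (0.94) and Mcc (0.93). Sox2 (Add3, 0.86, and Nup155, 0.86) and Sall4 (Map1s, 0.89, and Rnf187, 0.87) had weaker matches. Rif1 was matched by the chromatin remodeller Atrx (0.98) and the kinesin Cenpe (0.97). Both were picked for likeness to Rif1 over these same libraries, so their low RNA in siKrr1 C and siNC follows from that choice. Atrx RNA was at 42.2, 25.3 and 41.0 CPM in siKrr1 A, C and D and at 38.0, 28.4 and 47.7 CPM in siGFP, siNC and Lipo. These 12 libraries come from 6 lysates that share a table, so the values of r describe likeness in these samples alone.

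Sox2 lies inside the long noncoding gene Sox2ot in the reference annotation, and Sox2ot held 337 RNA counts over all 6 libraries, against 18130 to 24654 for Sox2 in each. The sources used here do not state the strand setting.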

How the data were processed

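Each lysate gave an RNA-seq and a ribosome profiling library. Per the submitters' processing notes, reads were handled with STAR and HTSeq on mm10. The deposited tables hold raw counts per gene symbol, made by the authors from unique alignments, and the sources used here do not state versions, annotation or strand setting. Reads on no feature (31.2% to 33.4% of RNA and 57.5% to 63.3% of footprint alignments) or ambiguous (at most 0.206%) were left out. Knockdown columns carry letters and GEO titles numbers, so they were assigned to their group only.

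The main test was the quasi-likelihood test of edgeR (version 4.0.16, R 4.3.3; TMM, filterByExpr, Benjamini-Hochberg adjustment over all genes), with DESeq2 1.42.0 as an alternative. Standard errors and 95% intervals come from the F statistic. For translational efficiency, an assay by condition interaction was fitted over 12 libraries with no block. Lysates pair the assays by design and by data (r of deviations 0.265 to 0.713 over 6117 genes). The scripts were tested on simulated data. No pair of libraries within a group was a duplicate (chi-square per degree of freedom 4.03 to 28.7). Gene coordinates and start windows come from RefSeq, GRCm38.p6. The members and lists were chosen with earlier results of these data known. Named were all members, Krr1, up to 4 called genes per list and comparison (else the most abundant), and the 2 genes most like each member; the marker and partner genes named beyond this were chosen after their values were seen.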

Additional observations from a re-analysis of the deposited data

How the results depend on the processing

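Of 24 member results (8 genes in RNA, footprints and translational efficiency) over all alternatives, 226 of 248 values kept their direction and their side of the threshold, 16 changed sign and 6 passed the threshold. Called genes in RNA numbered 674, against 1059 with no filter on low counts, 1202 with DESeq2 and 114 to 1298 with a lysate left out. In footprints they numbered 806, against 1400 with no filter and 131 to 1337 with a lysate left out. Members called in footprints numbered 0, against 2 with no filter, 2 with DESeq2 (Pou5f1 and Utf1 in both) and 0 to 1 with a lysate left out. For translational efficiency 0 genes were called, against 2 with no filter, 2 with DESeq2, 0 to 1 with a lysate left out and 9 with the replicate block, which changed no call of a member. The sign changes were in these results. With a lysate left out the log2 fold change ranged from -0.0237 to 0.0907 for Sox2 and from -0.206 to 0.185 for Rif1 in RNA, and from -0.0466 to 0.0394 for Sall4 in footprints. For translational efficiency it ranged from -0.0847 to 0.0104 for Sall4, -0.202 to 0.0188 for Utf1, -0.0835 to 0.0178 for Gbx2 and -0.0255 to 0.336 for Rif1. With siNC and siKrr1 C left out together, an alternative chosen after seeing the data, the efficiency change was 0.0217 for Utf1 and 0.0421 for Gbx2, and Rif1 RNA stood at -0.02. The cause was not tested.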

Other observations

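The low RNA of Rif1 in siKrr1 C and siNC was shared by other genes. Of 6117 genes of at least 20 CPM in both assays, 42 had lower RNA in both of these lysates, Rif1 itself among them. Lower meant at least 0.25 log2 units below each of the other 4 lysates, and 0 genes had RNA as far above them. In footprints 1 gene was lower in this way and 0 were higher. The gap of Rif1 was 0.52 in RNA and -0.19 in footprints. The 35 of the 42 genes that matched the RefSeq table spanned a median of 61.0 kb in the genome, against 23.9 kb over all of the abundant genes that matched. The gap of 0.25 and the pair of lysates were chosen after the values were seen, and no count for another pair is given here. The part of gene span in the pattern was not tested.

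Two-cell-stage genes, among them the Zscan4 cluster, which Rif1 is known to keep silent in mouse cells, summed to 0.129 to 0.322 CPM of RNA in siKrr1 lysates and 0.141 to 0.21 CPM in controls. Their footprints summed to 0.168 to 0.372 CPM in siKrr1 lysates and 0.0816 to 0.180 CPM in controls. None of the 12 passed the filter on low counts, and 5 were at 0 in every RNA library. The counts come from unique alignments, so reads that align to more than 1 gene of a cluster are not in these sums.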
